A study of Mus musculus with 6 samples.

Results

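The genes described here are 10 members of the interleukin 6 and interleukin 11 cytokine family: the ligands Il11, Il6, Lif, Clcf1 and Ctf1, the receptor chains Il6st, Il11ra1, Osmr and Lifr, and the feedback inhibitor Socs3. They are 10 of the 31115 genes in the deposited table and were found by their symbols. The family was picked from measured values, because Il11 was among the largest increases between the 2 groups of libraries. The values of Il11 are therefore given as a description without a test, and no count of members supports the choice. RNA was sequenced on day 2 from cells that the labels call mouse neonatal cardiomyocytes, meaning heart muscle cells of newborn mice, grown in DMEM with 10% fetal bovine serum under what the labels call normal culture. Of the 6 libraries, 3 are labelled Ad-scramble and 3 are labelled Ad-SPTBN1, the latter with βII spectrin overexpression as genotype. The labels do not say what the constructs contain, which promoter drives them, how pure the cells were or whether replicates were cultured apart. The p-values below therefore rest on a spread between libraries that may be technical.

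The labels were checked first. Sptbn1, the gene for βII spectrin, measured 50.83, 48.25 and 50.08 FPKM (fragments scaled by gene length and by library size) under the Ad-scramble label and 16.08, 16.45 and 15.75 FPKM under the Ad-SPTBN1 label. It was therefore lower in the libraries labelled as overexpressing, and each direction below is given for the libraries as labelled, not for a gain of spectrin. The cardiomyocyte markers were present at low levels: 11 of them summed to between 75.3 and 80.5 FPKM under the Ad-scramble label and to between 124 and 128 FPKM under the Ad-SPTBN1 label. In the same libraries 10 fibroblast markers summed to between 4150 and 4482 FPKM and to between 4397 and 4618 FPKM. The largest single part of these sums was Col1a1, at 2078 ± 152 and 2402 ± 103 FPKM (SD, n = 3). The median difference of the 10 markers was -0.139 on the log2(FPKM + 1) scale, lower under the Ad-SPTBN1 label. Reads in genes, recovered from the FPKM values, ranged from 18775303 to 19638662 per library. Of the 12608 genes tested with limma on log2(FPKM + 1), 11.0% were called in either direction at an adjusted p under 0.05, with 5.54% higher and 5.50% lower under the Ad-SPTBN1 label.

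Cytokines of this family signal through gp130, the receptor chain encoded by Il6st. Interleukin 6 and interleukin 11 first bind their own receptor chains and then a pair of gp130 chains, whereas leukemia inhibitory factor, cardiotrophin and cardiotrophin-like cytokine signal through gp130 paired with the chain encoded by Lifr, and mouse oncostatin M mainly through gp130 paired with the chain encoded by Osmr. The receptors activate JAK kinases, which phosphorylate STAT3, and STAT3 induces Socs3, whose product blocks the same receptors. In the heart, leukemia inhibitory factor and cardiotrophin are known as growth and survival signals of cardiomyocytes, and interleukin 11 is known as a product of stimulated fibroblasts.

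Promoter sequence is shown for the 3 members with the highest differences, Il11, Il6 and Osmr, and for Lif and Socs3, members without a call whose windows also hold a match. RefSeq windows on GRCm38.p6, from 250 bases before to 50 bases after an annotated start, were matched for 9 of the 10 members, all but Clcf1. Each line runs 5′ to 3′ on the strand of the gene. Capitals mark matches, searched on both strands, to the AP-1 motif TGANTCA, the STAT motif TTCNNNGAA and the NF-kB motif GGANTTTCC, which do not overlap here.
Il11, chr7:4778092-4778391, minus strand: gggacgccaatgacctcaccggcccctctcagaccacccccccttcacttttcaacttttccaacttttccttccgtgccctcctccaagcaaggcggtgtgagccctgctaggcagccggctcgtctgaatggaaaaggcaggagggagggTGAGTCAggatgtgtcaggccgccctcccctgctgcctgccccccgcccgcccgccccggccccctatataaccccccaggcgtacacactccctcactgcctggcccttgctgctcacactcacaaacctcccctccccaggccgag
Il6, chr5:30012864-30013163, plus strand: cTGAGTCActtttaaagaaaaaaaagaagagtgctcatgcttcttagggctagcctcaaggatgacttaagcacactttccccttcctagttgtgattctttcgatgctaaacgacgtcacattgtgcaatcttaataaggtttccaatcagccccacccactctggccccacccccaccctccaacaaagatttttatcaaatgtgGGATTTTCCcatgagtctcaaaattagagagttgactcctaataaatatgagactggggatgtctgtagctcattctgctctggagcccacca
Osmr, chr15:6874264-6874563, minus strand: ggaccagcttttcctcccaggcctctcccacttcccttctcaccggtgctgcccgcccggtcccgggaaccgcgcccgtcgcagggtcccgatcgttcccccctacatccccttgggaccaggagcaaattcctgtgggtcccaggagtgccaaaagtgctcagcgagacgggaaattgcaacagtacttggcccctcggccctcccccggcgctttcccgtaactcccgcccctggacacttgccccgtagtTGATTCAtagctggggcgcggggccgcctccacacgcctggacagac
Lif, chr11:4257318-4257617, plus strand: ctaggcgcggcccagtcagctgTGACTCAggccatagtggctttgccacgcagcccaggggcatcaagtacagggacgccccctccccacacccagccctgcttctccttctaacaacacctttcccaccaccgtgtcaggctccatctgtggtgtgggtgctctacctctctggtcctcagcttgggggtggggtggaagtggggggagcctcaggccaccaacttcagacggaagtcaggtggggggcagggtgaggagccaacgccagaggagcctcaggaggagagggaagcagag
Socs3, chr11:117969317-117969616, minus strand: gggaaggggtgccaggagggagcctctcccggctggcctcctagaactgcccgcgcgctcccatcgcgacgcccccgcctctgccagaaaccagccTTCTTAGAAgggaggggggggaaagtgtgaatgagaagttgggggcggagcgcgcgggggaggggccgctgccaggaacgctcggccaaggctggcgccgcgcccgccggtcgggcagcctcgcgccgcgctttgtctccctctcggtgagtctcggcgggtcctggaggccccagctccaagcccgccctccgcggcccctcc

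The 9 members have 12 windows in all. The AP-1 letters were found in 1 window each of 4 members, Il11, Il6, Osmr and Lif, while 7.8% of all 32851 windows of 300 bases hold them. The windows of Il6st, Ctf1, Il11ra1 and Lifr have no match to any of the 3 motifs. The match of Il11 begins 98 bases before the annotated start, and a second annotated start of Il11, further upstream, has no match to any of the 3 motifs in its window. The match of Osmr begins 3 bases after the start. The STAT letters were found only in the window of Socs3 among the 9 members, 154 bases before the start, and 8.3% of all windows hold them. The NF-kB letters were found only in that of Il6, 43 bases before the start, and 1.3% of all windows hold them. The matches of Il6 and Lif begin 249 and 228 bases before the start, and Lif was not called. A match is a run of letters and not a site of binding.

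Among the ligands, Il11 and Il6 stood higher in the libraries labelled Ad-SPTBN1, and Lif, Clcf1 and Ctf1 had overlapping groups. Il11 (ENSMUSG00000004371, chromosome 7, 4772373 to 4782857, minus strand, GRCm38 as for all positions below) encodes interleukin 11. It measured 6.90, 7.99 and 7.08 FPKM under the Ad-scramble label and 12.20, 13.09 and 11.87 FPKM under the Ad-SPTBN1 label. The groups did not overlap, and the ratio of their means was 1.69, from 7.33 ± 0.584 to 12.4 ± 0.630 FPKM (SD, n = 3). This is the value that chose the family. The log2 difference of 0.69 had rank 37 among the 12608 tested genes, and the levels rest on 272 to 515 reads per library. In bulk RNA a change in the number of cells that express a gene and a change in its RNA per cell cannot be told apart, here or below.

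Il6 (ENSMUSG00000025746, chromosome 5, 30013114 to 30019981, plus strand) encodes interleukin 6, a cytokine of the acute-phase response. It measured 5.24, 5.09 and 6.56 FPKM under the Ad-scramble label and 8.51, 7.99 and 8.03 FPKM under the Ad-SPTBN1 label. All 3 libraries labelled Ad-SPTBN1 stood above all of the others. Il6 rose by 0.48 ± 0.08 on the log2(FPKM + 1) scale (SE, n = 3 per group, limma adjusted p = 0.0146), a ratio of means of 1.45. Its adjusted p was 0.0545 without Ad-scramble replicate 1 and 0.0517 without Ad-SPTBN1 replicate 1, which ended the call, as did testing with no minimum mean (adjusted p = 0.0558). With a pseudocount of 5 the log2 difference was 0.31 and the call held (adjusted p = 0.0136). Its values rest on 225 to 394 reads, and the libraries labelled Ad-scramble varied by 14.4% (coefficient of variation) where counting alone gives 6.28%.

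The other 3 ligands did not separate the groups. Lif (chromosome 11), which encodes leukemia inhibitory factor, was the most abundant ligand, at 15.97, 15.14 and 15.50 FPKM and at 16.17, 16.32 and 15.95 FPKM in the same order of groups. Its log2 difference was 0.05 with a 95% interval from -0.03 to 0.13 (limma adjusted p = 0.37). Clcf1 (chromosome 19), which encodes cardiotrophin-like cytokine factor, measured 4.61 ± 0.504 and 4.96 ± 0.201 FPKM, with an interval of the log2 difference from -0.08 to 0.26 (limma adjusted p = 0.472). An annotated transcript, AC109138.7, lies over 8.2% of the exon bases of Clcf1 on the same strand. Ctf1 (chromosome 7), the gene of cardiotrophin, was close to the limit of detection, with 0.532 ± 0.130 and 0.388 ± 0.221 FPKM from 5 to 21 reads per library, and was not tested because its mean was under 1 FPKM.

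**Figure D1:**
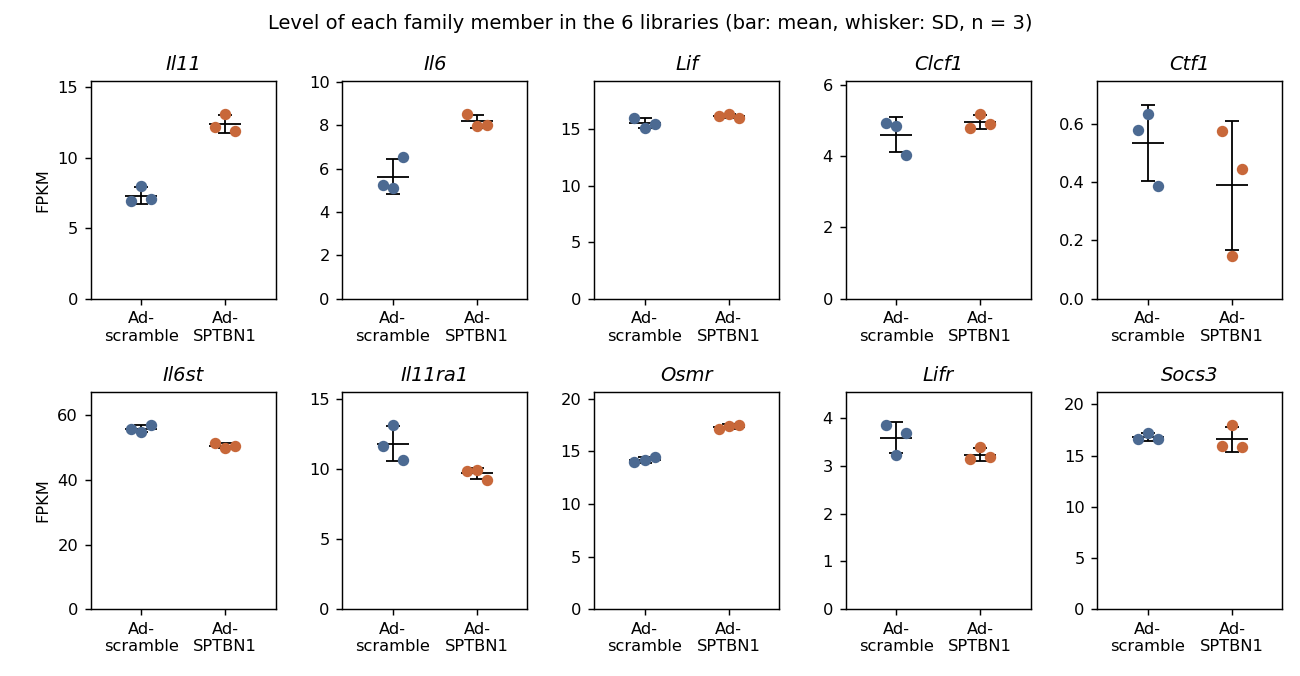
FPKM of each of the 10 members in the 3 libraries labelled Ad-scramble and the 3 labelled Ad-SPTBN1, with 1 point per library, a bar for the mean and a whisker for the SD, each panel on its own axis from 0. Il11, Il6 and Osmr are higher and Il6st and Il11ra1 lower under the Ad-SPTBN1 label with no overlap of the groups, and the other 5 members overlap.

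The receptor chains moved in both directions. Osmr (ENSMUSG00000022146, chromosome 15, 6813577 to 6874969, minus strand), the chain that pairs with gp130 for oncostatin M, measured 13.95, 14.19 and 14.51 FPKM under the Ad-scramble label and 17.10, 17.44 and 17.51 FPKM under the Ad-SPTBN1 label. The groups lay apart with little spread in either. Osmr rose by 0.27 ± 0.03 on the log2(FPKM + 1) scale (limma adjusted p = 0.00394), a ratio of 1.22, and kept its call without any 1 library (adjusted p from 0.0117 to 0.0218). At 3132 to 3996 reads per library the counting error was 1.77% and 1.59%, close to the spread between libraries of 1.98% and 1.28% (coefficients of variation).

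Il6st (ENSMUSG00000021756, chromosome 13, 112464070 to 112510086, plus strand), which encodes the shared chain gp130, was the most abundant member in both groups, with a mean above that of 97.2% of the genes in the table. It measured 55.68, 54.85 and 57.01 FPKM under the Ad-scramble label and 51.35, 49.99 and 50.52 FPKM under the Ad-SPTBN1 label. Each library labelled Ad-SPTBN1 was below each of the others. Il6st fell by 0.14 on the log2(FPKM + 1) scale (SE 0.03, limma adjusted p = 0.0219), a ratio of 0.906. The call held without Ad-scramble replicate 2 (adjusted p = 0.0385) and was lost without Ad-scramble replicate 1 (0.0694) or 3 (0.0578), or without Ad-SPTBN1 replicate 1 (0.0527), 2 (0.078) or 3 (0.0743), while the direction stayed. It was also lost with no variance trend (adjusted p = 0.0649) and with the replicate number as a block (adjusted p = 0.0589).

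Il11ra1 (ENSMUSG00000073889, chromosome 4, 41699989 to 41769474, plus strand) encodes the receptor chain that binds interleukin 11. It measured 11.62, 13.13 and 10.66 FPKM under the Ad-scramble label and 9.88, 9.95 and 9.24 FPKM under the Ad-SPTBN1 label. The groups did not overlap, but the log2 difference of -0.26, with a 95% interval from -0.42 to -0.09, did not pass (limma adjusted p = 0.0622). It passed without Ad-scramble replicate 3 (adjusted p = 0.038), with a minimum mean of 5 FPKM (adjusted p = 0.0403) and with voom on the recovered reads (adjusted p = 0.00474). Its level is uncertain, since 46.3% of the 50-base words in its annotated transcripts also occur in Il11ra2 and Gm13305, near-identical copies, and how shared reads were counted is not given in the sources used here. The 2 rows of the table named Il11ra2 measured at most 0.611 FPKM in any library. These values do not settle how shared reads were counted. Lifr (chromosome 15), the chain for leukemia inhibitory factor and cardiotrophin, measured 3.58 ± 0.328 and 3.23 ± 0.131 FPKM, with overlapping groups and an interval of the log2 difference from -0.27 to 0.04 (limma adjusted p = 0.329).

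Socs3 (ENSMUSG00000053113, chromosome 11, 117966079 to 117970047, minus strand), the feedback inhibitor that STAT3 induces, measured 16.62, 17.22 and 16.58 FPKM under the Ad-scramble label and 15.93, 18.00 and 15.83 FPKM under the Ad-SPTBN1 label. The second group spanned the first on both sides. The log2 difference was -0.02 with a 95% interval from -0.14 to 0.10 (limma adjusted p = 0.851), and its sign turned, to 0.01, without Ad-SPTBN1 replicate 1 or 3. A fall of Socs3 by as much as 0.14 or a rise by as much as 0.10 is therefore within the interval.

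In all, 8 of the 9 members other than Il11 were tested, of which 2 rose (Il6 and Osmr), 1 fell (Il6st) and 5 did not pass. The same fit called 11.0% of all tested genes, and since this contrast chose the family nothing is read from the comparison. The groups did not overlap for 4 of these 8 members, against 32.3% of all tested genes. The median log2 difference of the 8 was 0.016, beside 0.002 over all tested genes.

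**Figure D2:**
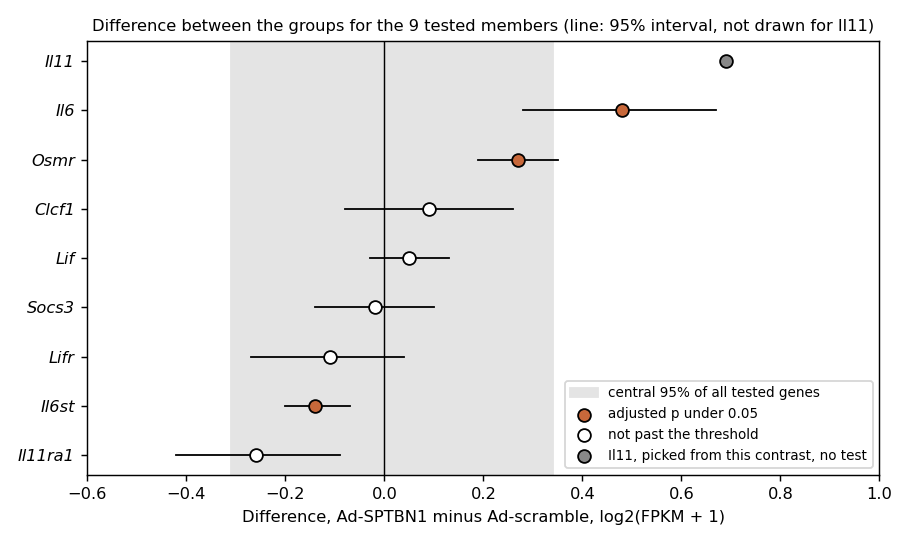
Difference between the groups (Ad-SPTBN1 minus Ad-scramble, log2(FPKM + 1)) for the 9 tested members, with 95% intervals from limma except for Il11, which was picked from this contrast. The shaded band, from -0.31 to 0.34, holds the central 95% of all tested genes, and Il11 and Il6 lie to its right.

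The order of the members by level changed in the middle of the family. In the libraries labelled Ad-scramble the order by FPKM, which is scaled to gene length, was Il6st, Socs3, Lif, Osmr, Il11ra1, Il11, Il6, Clcf1, Lifr and Ctf1, and no 2 neighbours overlapped in range. In the libraries labelled Ad-SPTBN1, Osmr came second at 17.4 FPKM, followed by Socs3 at 16.6 and Lif at 16.1 FPKM, and the ranges of these 3 overlapped from 1 to the next. Il11, at 12.4 FPKM, stood above Il11ra1, at 9.69 FPKM. In the libraries labelled Ad-scramble Il11, at 7.33 FPKM, stood below Il11ra1, at 11.8 FPKM. This crossing is a description only. The value of Il11 chose the family, and Il11ra1 was not called and its level is uncertain.

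Ratios within a library put these shifts on a scale that the library total does not touch, and they are descriptions of the same values. The ratio of Il11 to Il11ra1 was 0.594, 0.608 and 0.664 under the Ad-scramble label and 1.24, 1.32 and 1.28 under the Ad-SPTBN1 label. The ratio of Il6 to Il6ra, the gene of the receptor chain that binds interleukin 6, was 0.493, 0.505 and 0.648 against 0.883, 0.803 and 0.756. In both cases the groups lay apart. For Il11 to Il11ra1 this follows in part from the choice of Il11, and the level of Il11ra1 is uncertain. Il6ra itself measured 10.3 ± 0.316 and 10.1 ± 0.505 FPKM (limma adjusted p = 0.765). The ratio of Il6 to Il6ra therefore mainly repeats the difference of Il6. The ratio of Lif to Lifr, neither of which was called, also lay apart, at 4.35 ± 0.305 and 5.0 ± 0.165 (SD, n = 3). The ratio of Osmr to Il6st went from 0.255 ± 0.00405 to 0.343 ± 0.00863 (SD, n = 3), and that of Osmr to Lifr from 3.99 ± 0.395 to 5.37 ± 0.186. The ratio of Il11 to Il6 overlapped between the groups, at 1.32 ± 0.246 and 1.52 ± 0.107.

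**Figure D3:**
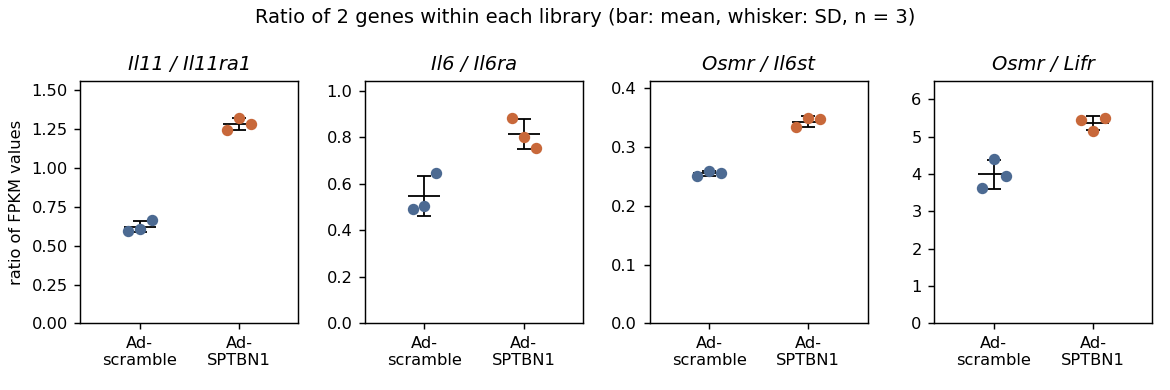
Ratio of the FPKM values of 2 genes within each library, with 1 point per library, a bar for the mean and a whisker for the SD of the 3 libraries of a group. In each of the 4 panels the libraries labelled Ad-SPTBN1 lie above the others, with Il11 to Il11ra1 going from 0.622 to 1.28 on average. The value of Il11 chose the family, and the level of Il11ra1 is uncertain.

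A sequence feature was counted in the transcripts of the members. The 3′ UTR of the transcript with the longest coding sequence held 10 AUUUA pentamers, the core of AU-rich elements that mark short-lived mRNAs, in Il11 (1194 bases), 6 in Il6 (427 bases) and 7 in Lif (3180 bases). The median over 21186 genes was 1, and 5.9% of them held at least as many as Il11. The counts were not adjusted for the length of the 3′ UTR, so those of long and short ones are not alike. Among receptors Lifr held 11 in 6320 bases, Il6st 9 in 5641 bases and Osmr 4, Socs3 and Clcf1 held 4 each, and Ctf1 and Il11ra1 held 0. Of these, Lif, Lifr, Clcf1, Socs3 and Il11ra1 were not called.

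Around the members, 6 lists with 70 other genes of the pathway were examined, of which 61 were tested. Of these 10 rose and 10 fell, or 32.8%, beside 11.0% of all tested genes. With 1 library left out the count was between 10 and 15 in place of 20: 10 with Ad-SPTBN1 replicate 2 or with Ad-scramble replicate 1 left out, 11 without Ad-SPTBN1 replicate 1 and 13 without Ad-SPTBN1 replicate 3. With no minimum mean it was 11. Calls over all tested genes dropped too, from 1391 to between 620 and 867 with 1 library left out. With no minimum mean they were 665. The lists were chosen with earlier results of these data known, around a family picked from this contrast. Nothing is therefore read from the comparison with all tested genes. Calls per list below stand beside 5.54% higher and 5.50% lower of all tested genes.

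Most other ligands were too low to test. Osm, the gene of oncostatin M, which is the ligand of the Osmr chain, measured at most 0.119 FPKM in any library. Il27 measured 1.46 ± 0.137 and 1.65 ± 0.283 FPKM (adjusted p = 0.552). Among 5 tested receptor chains and receptor sheddases 0 rose and 2 fell. These were Adam10 and Adam17, metalloproteases known to release the receptor chains of interleukin 11 and interleukin 6 from the cell surface, respectively. Adam10 measured 20.56, 19.98 and 20.51 FPKM against 15.78, 17.22 and 17.47 FPKM and fell by 0.26 (adjusted p = 0.0127). Adam17 fell by 0.19 (adjusted p = 0.0172). Neither call held without Ad-scramble replicate 1 (0.0506 and 0.054), and that of Adam17 was also lost without Ad-SPTBN1 replicate 1 (0.056), 2 (0.0633) or 3 (0.0514).

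Of 11 JAK, STAT and SHP2 signal carriers 2 rose and 0 fell. Stat3, the main STAT of this family, measured 34.0 ± 0.652 and 33.2 ± 0.222 FPKM (adjusted p = 0.523). The kinase Jak2 rose by 0.16 (adjusted p = 0.0181), from 31.8 ± 0.789 to 35.6 ± 0.455 FPKM, and Stat5b, another STAT factor, rose by 0.29 (adjusted p = 0.0239). Leaving out Ad-scramble replicate 3 kept the call of Jak2 (adjusted p = 0.0242), and leaving out any other library ended it (adjusted p from 0.0509 to 0.067). For Stat5b the call held with Ad-scramble replicate 1 left out (adjusted p = 0.0152) and with no other library left out (adjusted p from 0.0668 to 0.0778). Of 11 tested feedback inhibitors other than Socs3, 1 rose and 0 fell. Socs5, a relative of Socs3, rose by 0.20, from 14.3 ± 0.205 to 16.5 ± 0.366 FPKM (adjusted p = 0.0119).

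Of 24 tested genes known as targets of STAT3, 6 rose, 4 fell and their median log2 difference was 0.015. Tnc, which encodes the matrix protein tenascin C, measured 246.65, 236.80 and 246.47 FPKM under the Ad-scramble label and 323.40, 323.14 and 323.28 FPKM under the Ad-SPTBN1 label. It rose by 0.41 (adjusted p = 0.000421). Timp1, an inhibitor of matrix metalloproteinases, rose by 0.31 (adjusted p = 0.00725) and Icam1, an adhesion molecule, by 0.23 (adjusted p = 0.00373), while Fos, a subunit of AP-1, fell by 0.31 (adjusted p = 0.00082). Genes of this list thus changed in both directions.

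In the list of genes known to induce Il11 most calls were falls. Of 10 tested genes 1 rose and 6 fell, beside 5.54% and 5.50% of all tested genes, with a median of -0.178 on the log2 scale. Those that fell were Tgfb3 and subunits of AP-1. Tgfb3, a TGF-β ligand, measured 50.35, 49.46 and 51.06 FPKM under the Ad-scramble label and 37.59, 38.25 and 38.48 FPKM under the Ad-SPTBN1 label, and fell by 0.39 (adjusted p = 0.000672). The AP-1 subunits Fos, Fosb and Jun fell by 0.31, 0.32 and 0.19 (adjusted p = 0.00082, 0.00305 and 0.0123), and Jun did not pass with Ad-scramble replicate 1 left out (0.0509). Fosl1, an AP-1 subunit named after its values were seen, was the gene of the list that rose, from 42.5 ± 3.47 to 51.6 ± 1.06 FPKM (adjusted p = 0.0233). Its call held with Ad-scramble replicate 2 or 3 left out and was lost without Ad-scramble replicate 1 (0.0673) or without Ad-SPTBN1 replicate 1 (0.0675), 2 (0.0801) or 3 (0.0598). Tgfb1 and Tgfb2 were not called. Fos and Junb are on both this list and that of STAT3 targets.

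**Figure D4:**
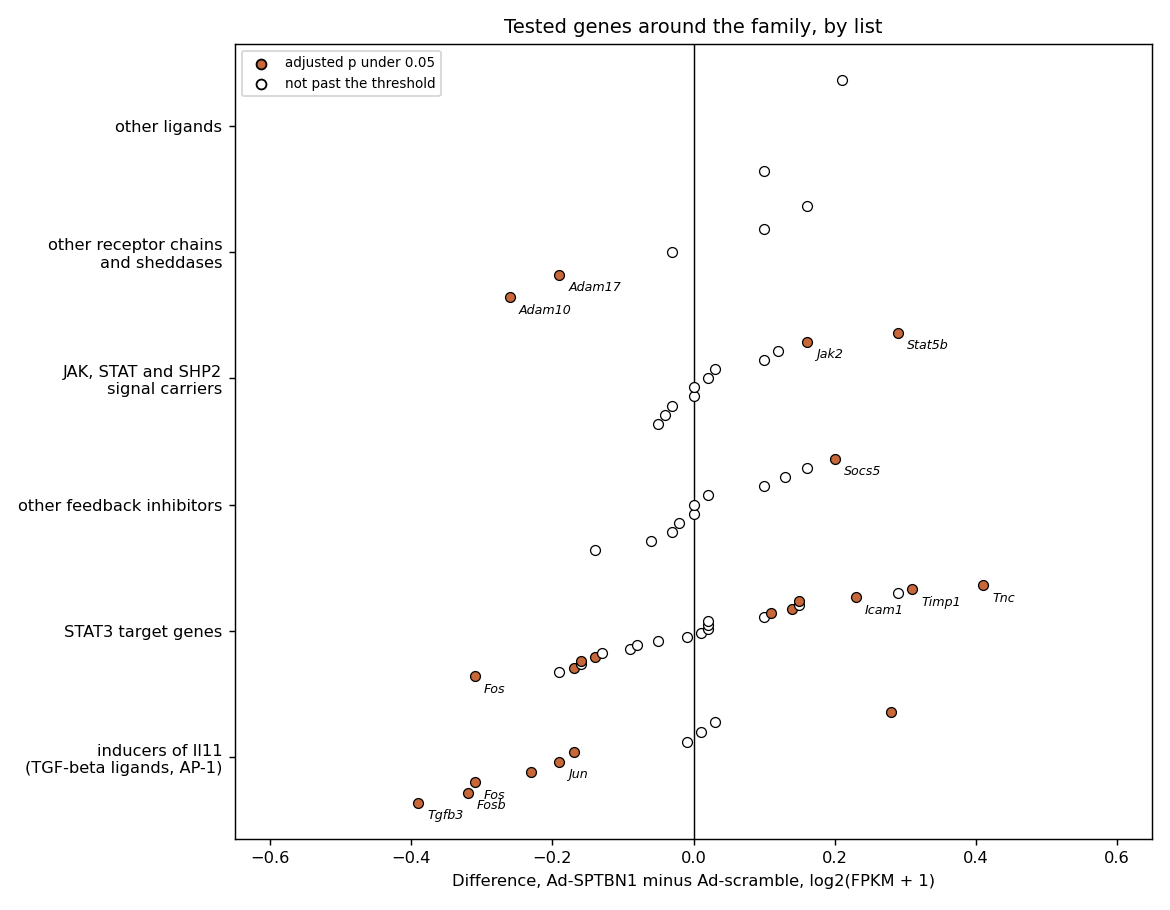
Difference between the groups (Ad-SPTBN1 minus Ad-scramble, log2(FPKM + 1)) of each tested gene in 6 lists around the family, filled where the adjusted p is under 0.05. Genes of the STAT3 target list lie on both sides of 0, from Fos at -0.31 to Tnc at 0.41, and 6 of 10 inducers of Il11 lie filled on the left.

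Markers of several cell types moved between the same libraries, and their part in the values above was not tested. Over all tested genes 5.54% rose and 5.50% fell, and the marker counts stand beside these shares. Of 8 tested cardiomyocyte markers 6 rose and 0 fell. Actc1, cardiac actin, went from 21.3 ± 0.405 to 46.2 ± 2.27 FPKM, and Myl7, an atrial light chain, measured 23.7 ± 1.89 and 26.3 ± 1.49 FPKM. Of 10 fibroblast markers 0 rose and 6 fell. Col1a1 measured 2078 ± 152 and 2402 ± 103 FPKM, and Col3a1 864 ± 12.4 and 796 ± 23.3 FPKM. Of 9 smooth muscle and pericyte markers 1 rose and 3 fell, with Acta2 at 1629 ± 11.6 and 1604 ± 15.9 FPKM and Pdgfrb at 114 ± 1.74 and 104 ± 0.619 FPKM, and the sum of the 9 ranged from 1860 to 1881 and from 1813 to 1841 FPKM. The 7 epicardial and mesothelial markers included 4 that rose and 0 that fell, with Krt18 at 40.2 ± 1.58 and 53.0 ± 1.61 and Tbx18 at 25.2 ± 0.738 and 26.1 ± 0.470 FPKM, and the sum of the 7 ranged from 94.3 to 96.4 and from 115 to 118 FPKM.

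Of 8 endothelial markers 0 were called with limma, with 2 at an unadjusted p under 0.05 and 1 called with voom. Eng was at 90.4 ± 2.82 and 96.9 ± 2.67 FPKM and Cdh5 at 15.0 ± 0.992 and 14.9 ± 0.436 FPKM, and the sum of the 8 markers ranged from 122 to 130 and from 129 to 135 FPKM. Leukocytes are a known source of interleukin 6 and oncostatin M, and their part in the values above was not tested. The leukocyte marker Ptprc was near 0, at 0.00297 and 0.00488 FPKM on average, while Csf1r, of the same list, measured 3.67 ± 0.283 and 3.41 ± 0.165 FPKM. The 7 macrophage and leukocyte markers summed to between 13.0 and 13.3 and between 12.3 and 13.7 FPKM. Of the 3 tested 0 were called with limma, 0 had an unadjusted p under 0.05 and 0 were called with voom, with Lyz2 at 4.65 ± 0.112 and 4.45 ± 0.647 and Cd68 at 3.93 ± 0.490 and 4.10 ± 0.0551 FPKM. CT010467.1, a gene where reads of ribosomal RNA can collect, was also higher under the Ad-SPTBN1 label, at 394 ± 42.4 against 74.4 ± 4.40 FPKM, and its part was not tested.

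Among 6842 other genes with mean levels of 5 FPKM or more, the 5 whose pattern over the 6 libraries was closest to that of Il11 were Cd81, Adam19, Sprr1a, Cox6b2 and Akap1. Genes with names of the Gm, LOC, Rik or -ps kind were left out of the 6842. Likeness was the root mean square difference in log2(FPKM + 1) after subtracting each gene's mean in the libraries labelled Ad-scramble. It ranged from 0.0543 for Cd81, a tetraspanin, to 0.072 for Akap1, an anchoring protein of mitochondria. Adam19, a metalloprotease, went from 6.90 ± 0.443 to 11.3 ± 0.697 FPKM. Sprr1a, a small proline-rich protein, went from 38.1 ± 4.16 to 61.4 ± 3.76 FPKM, and Cox6b2, an isoform of a cytochrome c oxidase subunit, from 5.30 ± 0.231 to 8.86 ± 0.534 FPKM. The likeness rests on 2 groups of 3 libraries and describes a difference of similar size, with ratios of means from 1.61 to 1.67.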

How the data were processed

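The data are 1 table of gene expression with 31115 genes and 6 libraries, 3 for each of the labels Ad-scramble and Ad-SPTBN1. The authors deposited the values as FPKM, with replicates not pooled. The build names GRCm38 and mm10 are given per the submitters' processing notes, and per the labels' protocols a NEBNext Ultra kit was used on total RNA. Not given in the sources used here are the aligner, counting tool, annotation release and use of strand. Columns were matched to libraries through the sample number in the labels.

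The tests used limma 3.58.1 (R 4.3.3) on log2(FPKM + 1). The prior variance followed a trend with level, and p-values were adjusted by Benjamini and Hochberg's method across 12608 genes whose mean reached 1 FPKM. A call is an adjusted p under 0.05. The scale understates changes of low genes. The test was checked on simulated data. Reads were recovered with exon lengths from GENCODE M21, in which 31065 gene IDs were found: 95.4% to 95.7% of values above 0 were whole reads within 0.1 of a read, and each library's scaling total, 18223028 to 19062955 reads, was below its reads in genes. The replicate numbers were not used as pairs. Intervals and counting errors cover counting or the spread between libraries only. No 2 libraries held identical values.

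The members and lists were chosen with earlier results of these data known. Named genes are the members, Sptbn1, up to 4 called genes of each pathway list with the smallest p or its 2 most abundant genes where none was called, the 5 genes most like Il11, and the 2 most abundant markers of each cell type. One gene that this rule names is not reported here. Genes named to report a count, an absent ligand or a further marker (Osm, Il6ra, Stat3, Fosl1, Tgfb1, Tgfb2, Junb, Ptprc, Csf1r and CT010467.1) were chosen after their values were seen. Alternatives were other pseudocounts, minimum means, scaling by size factors, no variance trend, the replicate number as a block, voom on recovered reads and leaving out each library.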

Additional observations from a re-analysis of the deposited data

How the results depend on the processing

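The count of called genes was 1391 as reported, 665 with no minimum mean, 730 with the replicate number as a block, 2146 with voom on the recovered reads and between 620 and 867 without 1 library. Of the members other than Il11, 3 were called as reported and between 1 and 3 without 1 library. Of the other pathway genes 20 were called as reported, 11 with no minimum mean and between 10 and 15 without 1 library. The other alternatives kept these counts within 1.5 times. The replicate numbers did not pair the libraries: deviations from the group means correlated at 0.006, -0.034 and 0.01 for libraries of the same number. With the replicate block 2 members and 14 other pathway genes were called, and Il6st was not (adjusted p = 0.0589). Il6st was also not called without the variance trend (adjusted p = 0.0649). With a pseudocount of 5, which shrinks differences of low genes by construction, the log2 difference of Il11 was 0.50 in place of 0.69 and that of Il6 was 0.31 in place of 0.48. That of Il11 was between 0.65 and 0.74 without 1 library. Without 1 library the log2 difference of Socs3, -0.02 as reported, ranged from -0.08 to 0.01, with the sign turned without Ad-SPTBN1 replicate 1 or 3, and the cause was not tested. Lif, Osmr, Clcf1 and Lifr kept their direction and side of the threshold under every alternative in which they were tested. Depth limits Ctf1, at 5 to 21 reads per library.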
